A study of Mus musculus with 6 samples.

Results

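The genes described here encode 4 families of proteins that act in pre-mRNA splicing: the hnRNP proteins, the SR proteins, the SF3A and SF3B subunits (called SF3 here) and the proteins of the small nuclear ribonucleoproteins (snRNPs). They are every row of the deposited tables whose symbol starts with Hnrnp, Srsf, Sf3a, Sf3b or Snrp, apart from names that mark a pseudogene. They number 52 of 23724 named genes. The rule uses symbols only, but it was set with earlier results of these data known. The 52 are 20 hnRNP, 11 SR, 9 SF3 and 12 snRNP genes. They were measured in regulatory T cells (Tregs), CD4 T cells that restrain immune responses, taken from lymph nodes of C57Bl/6 mice. All the mice had been immunised with myelin oligodendrocyte glycoprotein (MOG), a protein of the myelin sheath. There were 3 libraries of wild-type (WT) and 3 of MOG knockout mice, which lack MOG in the whole body (MOG KO), each made from 500 cells. The labels used here give no age or sex. Nothing in the labels says that each replicate is its own mouse, and p-values here rest only on the spread between these libraries, part of which may be technical.

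Splicing removes introns from a new transcript and joins its exons. The U1 and U2 snRNPs, each an RNA held in a ring of Sm proteins, mark the ends of an intron, and SF3A and SF3B are parts of the U2 snRNP that help it hold the branch point. SR proteins bind exons and mostly favour their inclusion, while hnRNP proteins coat the transcript and often act against inclusion. In T cells this balance is known for the switch of CD45 isoforms on activation, in which hnRNP L-like (Hnrnpll) takes part.

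Named gene counts totalled 2717910 to 4472546 per library. Below, levels are in RPM (a gene's reads per 1000000 counts of its library), given for WT replicates 1, 2 and 3 and then for MOG KO replicates 1, 2 and 3, and a gene is said to be read in a library where it reached 10 RPM. A count of 0 allows up to 0.671 to 1.1 RPM (3 counts), depending on the library, and such limits cover counting error only, since the libraries carry no molecular identifiers. The targeted gene Mog had 1 count in WT replicate 1 and 0 in the other libraries, so it checks no label. All 6 Treg markers (Foxp3, Il2ra, Ctla4, Ikzf2, Cd4 and Cd3e) were read in every library, except Foxp3 in WT replicate 3 at 8.22 RPM. WT replicate 3 also had the fewest genes read, 2701 against 3265 to 4440 elsewhere. Markers of CD8 T cells and NK cells were at 0 throughout, and so was Sdc1, the only plasma cell marker of the 2 sought that was in the table. The 3 dendritic cell markers summed to at most 1.74 RPM. The 4 B cell markers summed to 2.21, 206 and 87.3 RPM for WT, then 0, 129.8 and 1.16 RPM for MOG KO, with Cd79a at 0. The 4 myeloid markers reached 193 RPM in MOG KO replicate 2, of which Cd68 made 188 RPM, and 5.78 to 18.8 RPM elsewhere. The 3 globin genes in the table summed to 68.9 to 151 RPM in WT and 20.1 to 66.1 RPM in MOG KO, without overlap. Their part in the results below was not tested.

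Many of these genes share sequence with other genes, through copies elsewhere in the genome or through overlap at their own locus. This bears on how far their counts can be trusted. Of the 52 genes, 36 shared at least 1 stretch of 100 bases, the read length, with a transcript of another gene in the GENCODE M21 annotation, and 16 shared none. In 12 genes more than 10% of all such stretches were shared. Snrpf stood highest at 78.3%, with exons of Ccdc38 lying across it on the other strand. In MOG KO replicate 3, where Snrpf had its highest value, Ccdc38 had 55.1 RPM, against at most 2.21 RPM elsewhere. Hnrnpf followed at 49.4% with 10 partner genes. Srsf4 had 36.3%, Sf3b4 32.5%, Hnrnpa1 25.9% with 11 partner genes and Hnrnpa3 25.6% with 25, and Snrpn, Hnrnpab, Srsf2, Sf3a2, Hnrnpm and Hnrnpk had 11.9% to 19.2%. In Snrpf, Srsf4, Snrpn, Hnrnpab, Srsf2, Sf3a2 and Hnrnpm the partner sharing most stretches is a gene that overlaps them at their own locus. It lies on the same strand for Snrpn and Hnrnpm and on the other strand for the rest. Such pairs did not always vary together. Sf3a2 was at 0 in WT replicate 3 and MOG KO replicates 1 and 3, where its partner Plekhj1 had 165, 106 and 150 RPM. Hnrnpab and its partner Phykpl were both highest in WT replicate 3 (800.5 and 88.7 RPM). Shared counting was not tested. For 19 genes some exon lay opposite an exon of another gene, and the strand setting of the counting is unknown here. Hnrnpf is among them, with 26.5% of its exon bases lying opposite such exons. Many partners are processed pseudogenes, which are intronless copies of a messenger RNA inserted elsewhere. To show how exact the copies are, the following stretches of coding sequence of 4 genes described below, each the first 100 coding bases from GENCODE M21, occur without a single change in a pseudogene on another chromosome.
Hnrnpf, also in Gm6430 on chromosome 1: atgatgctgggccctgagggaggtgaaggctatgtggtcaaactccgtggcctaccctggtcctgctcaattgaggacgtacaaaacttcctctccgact
Hnrnpa1, also in Gm10052 on chromosome 9: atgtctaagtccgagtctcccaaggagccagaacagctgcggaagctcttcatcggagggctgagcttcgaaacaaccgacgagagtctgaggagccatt
Sf3b4, also in Gm7935 on chromosome 15: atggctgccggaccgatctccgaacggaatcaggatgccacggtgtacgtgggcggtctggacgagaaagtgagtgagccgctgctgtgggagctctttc
Snrpe, also in Snrpert on chromosome 2: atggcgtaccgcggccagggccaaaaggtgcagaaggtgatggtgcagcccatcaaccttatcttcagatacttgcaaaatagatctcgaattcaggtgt
A read from such a stretch cannot be assigned to 1 gene by its sequence, and how the counting treated it is not given in the sources used here. Values of these 4 genes, and of Hnrnpa3 and Hnrnpk, whose main partners are also pseudogenes on other chromosomes, are uncertain for that reason. The same holds, among others, for Snrpg, Hnrnph2, Srsf10 and Srsf5, each with such a pseudogene as main partner. These shared 8.22%, 7.59%, 6.9% and 5.46% of their stretches. Values of the genes whose main partner overlaps them, and of Hnrnpf in part, are uncertain because the handling of overlaps and strand is unknown. Hnrnpa2b1, Hnrnpll, Sf3b1, Snrpb, Srsf7, Srsf9 and Srsf11 shared no such stretch.

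The splicing genes were read in more libraries than most genes, yet most were missing from at least 1 library at this cut. 49 of the 52 were read in at least 1 library. Srsf12 and Snrpn, a gene best known for its expression in neurons, had 0 counts in all 6 libraries, and Sf3a1 reached at most 2.21 RPM. Of the 49, 10 (20.4%) were read in all 6 libraries and 39 in 1 to 5, with a median of 4 libraries. Over all 7908 genes read in at least 1 library, 704 (8.9%) were read in all 6 and the median was 2 libraries. The hnRNP genes made most of the difference in that share. By family 7 of 20 hnRNP (35%), 1 of 10 SR (10%), 1 of 8 SF3 (12.5%) and 1 of 11 snRNP genes (9.09%) were read in all 6. The family medians were 4, 4, 3.5 and 4 libraries. At a cut of 1 RPM in place of 10 RPM, 20 splicing genes (40%) and 16.3% of all genes were read in every library, and at 10 counts 15 (30.6%) and 11.1%. Split by mean level, 7 of 11 splicing genes (63.6%) and 405 of 684 genes (59.2%) with a mean of 300 RPM or more were read in every library. At 100 to 300 RPM the figures were 2 of 15 (13.3%) and 245 of 2330 (10.5%), and at 10 to 100 RPM 1 of 23 (4.35%) and 54 of 4098 (1.32%). The median number of libraries was the same for splicing genes and all genes at 300 RPM or more (6) and at 100 to 300 RPM (4). At 10 to 100 RPM it was 3 against 2. Of 294 values for the 49 genes, 67% were at 10 RPM or more, 27.9% under 3 RPM and 5.1% between, against 44.9%, 52% and 3.09% for all 7908 genes. In bulk RNA of this kind fewer cells expressing a gene and less RNA per cell cannot be told apart. Loss of transcripts while the RNA was copied and amplified was not tested. A missing gene is therefore one not read at this cut, and is not shown to be unexpressed. The Treg marker Foxp3 itself fell under the cut in WT replicate 3, at 8.22 RPM against 326 to 690 RPM in the other libraries. Counts per gene also say nothing of which exons were joined.

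**Figure D1:**
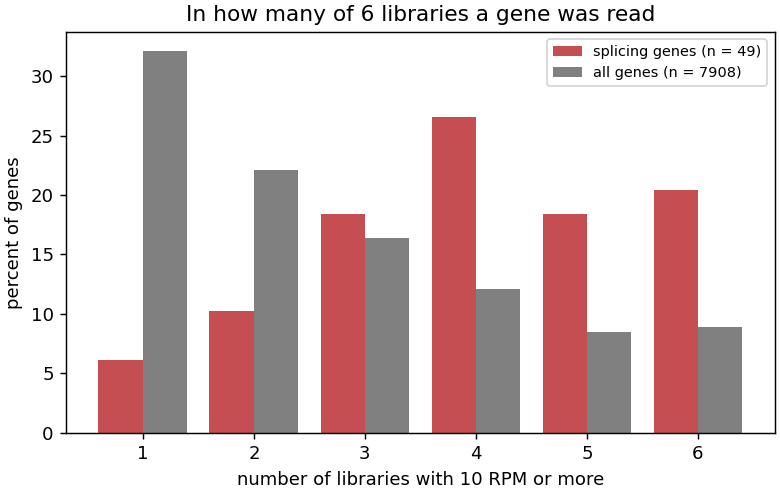
Percent of genes (y axis) read at 10 RPM or more in a given number of the 6 libraries (x axis), for 49 splicing genes (red) and 7908 genes in all (grey). 10 of the 49 splicing genes (20.4%) were read in all 6 libraries, against 8.9% of all genes. The share was 35% for hnRNP, 10% for SR, 12.5% for SF3 and 9.09% for snRNP genes.

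Which genes were missing differed from library to library and not only between genotypes. 2 libraries of the same genotype differed in whether they read a member for 18 ± 2.28 of the 52 genes (SD, 6 pairs), and 2 libraries of different genotype for 19.7 ± 2.87 (SD, 9 pairs). WT replicate 2, the library with the most genes read, held 43 of the 52, WT replicates 1 and 3 held 32 and 27, and the MOG KO libraries held 33, 33 and 29. 17 members were read in more WT than MOG KO libraries, 12 in more MOG KO libraries and 20 in equal numbers. The libraries also differed in genes read over the whole table, 3922, 4440 and 2701 in WT and 3527, 3460 and 3265 in MOG KO. Neither the pairwise differences nor this split was worked out for all genes, so they say nothing particular to the members.

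**Figure D2:**
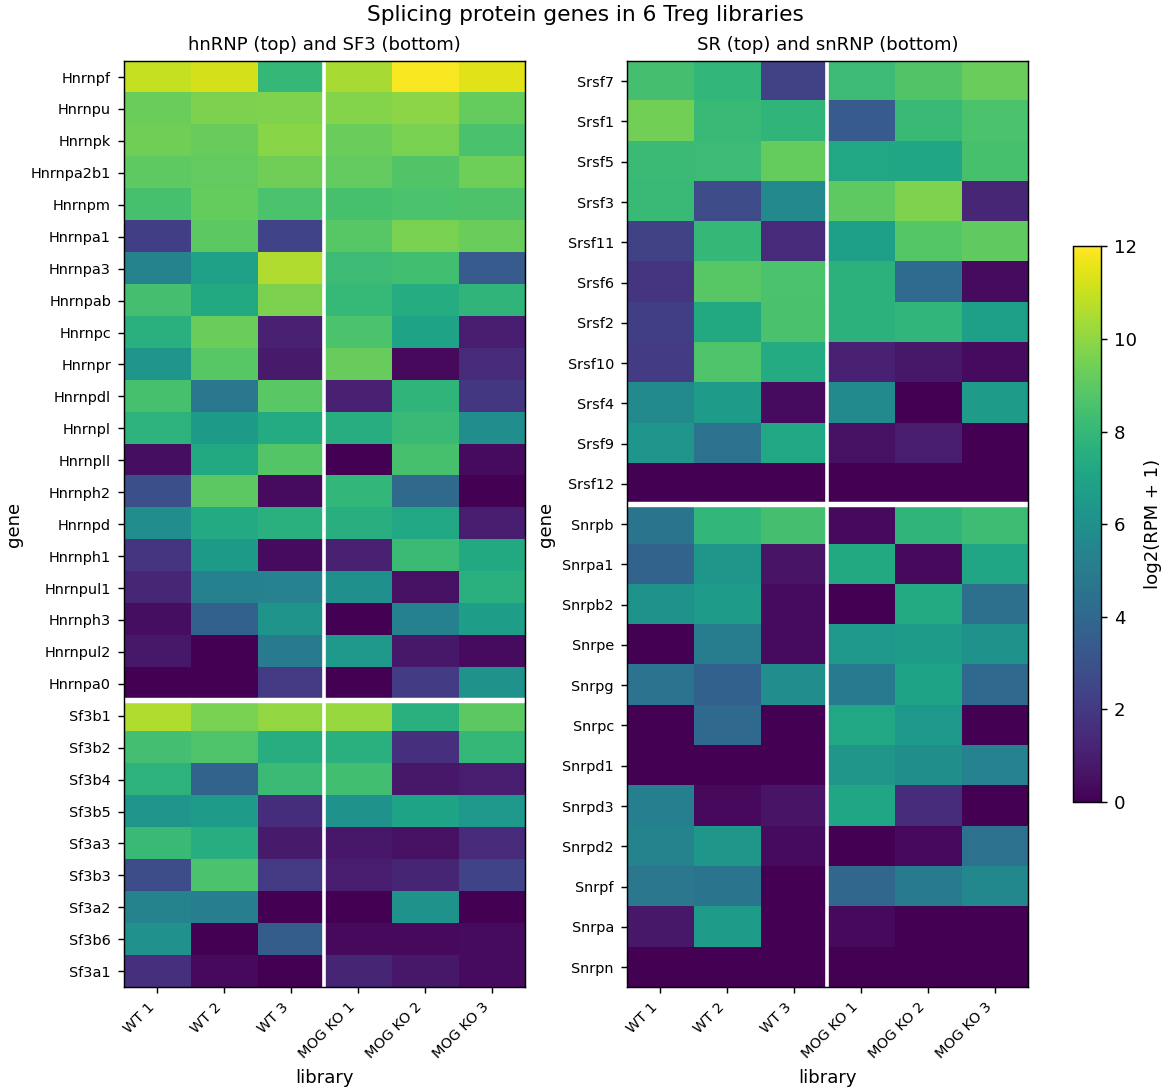
Level of each of the 52 genes (rows) in each of the 6 libraries (columns), as log2(RPM + 1), with the WT libraries left of the white vertical line and each family ordered by mean level. Dark cells at or near 0 stand beside bright ones in the same row for most genes, in both genotypes, while 7 hnRNP genes, Sf3b1, Srsf5 and Snrpg are bright or moderate in every column.

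The 4 families together made up 0.994%, 1.26% and 1.07% of gene counts in WT and 1.05%, 1.26% and 0.985% in MOG KO. The means were 1.11% ± 0.138 and 1.1% ± 0.145 (SD, n = 3 per group), so the genotypes differed by less than the spread between libraries. Without the 10 genes of highest mean, of which Hnrnpf is 1, the difference (MOG KO minus WT) was -0.133 percentage points, about the size of that spread. hnRNP genes took the largest part in every library, 0.669% ± 0.12 in WT and 0.731% ± 0.155 in MOG KO. SR genes took 0.198% ± 0.025 and 0.201% ± 0.0413. SF3 genes took 0.252%, 0.189% and 0.154% in WT and 0.174%, 0.0398% and 0.085% in MOG KO, where MOG KO replicate 1 lies within the WT range and the other 2 lie below it. snRNP genes took 0.0233%, 0.0683% and 0.0414% in WT and 0.0644%, 0.0786% and 0.0657% in MOG KO, so WT replicate 2 lies among the MOG KO values and the other WT libraries below them. No test was made of these sums, because the members were chosen with earlier results of these data known.

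**Figure D3:**
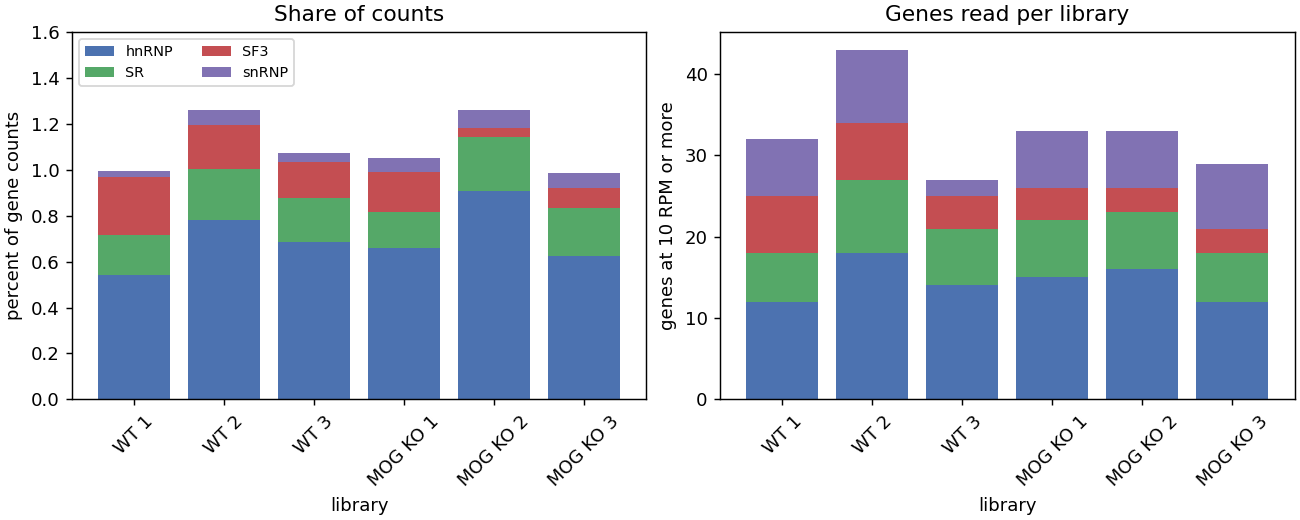
Left, percent of all gene counts in each family of splicing genes (stacked bars) for the 6 libraries. Right, number of genes of each family at 10 RPM or more. The total share lies between 0.985% and 1.26% in every library, and the snRNP part of the right panel holds 2 genes in WT replicate 3 against 7 to 9 elsewhere.

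Across genotypes, none of the splicing genes passed the test in edgeR. Of the 52, 44 passed the filter on low counts and were fitted with edgeR within the whole table of 4087 tested genes. 0 of 44 had an adjusted p under 0.05, where 0% of all tested genes did, and 0 of 4087 genes passed. At an unadjusted p under 0.05 there were 3 of 44 members (6.82%), against a background of 5.11% (209 of 4087), a share near the background. The 3 were Snrpd1, Srsf10 and Srsf9, which passed the filter only through the genotype in which they were higher. Their count is therefore given as a description. By limma-voom 0 passed (background 0%), with 4 of 44 members (9.09%) and 277 of 4087 genes (6.78%) at an unadjusted p under 0.05. DESeq2 on the same genes called 3 of the 41 members to which it gave an adjusted p (7.32%, background 5.98%). These were again Snrpd1, Srsf10 and Srsf9. DESeq2 on every gene with a count called 5 of 43 (11.6%, background 15.9%), those 3 with Sf3a3 and Sf3b6. 20 of the 44 members had positive log2 fold changes (MOG KO minus WT) and 24 negative, with a median of -0.07, and all tested genes had 2127 positive and 1960 negative values with a median of 0.06. The median standard error (SE) of a member was 2.26 on the log2 scale, so a change of several fold in a typical member was not detectable here.

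**Figure D4:**
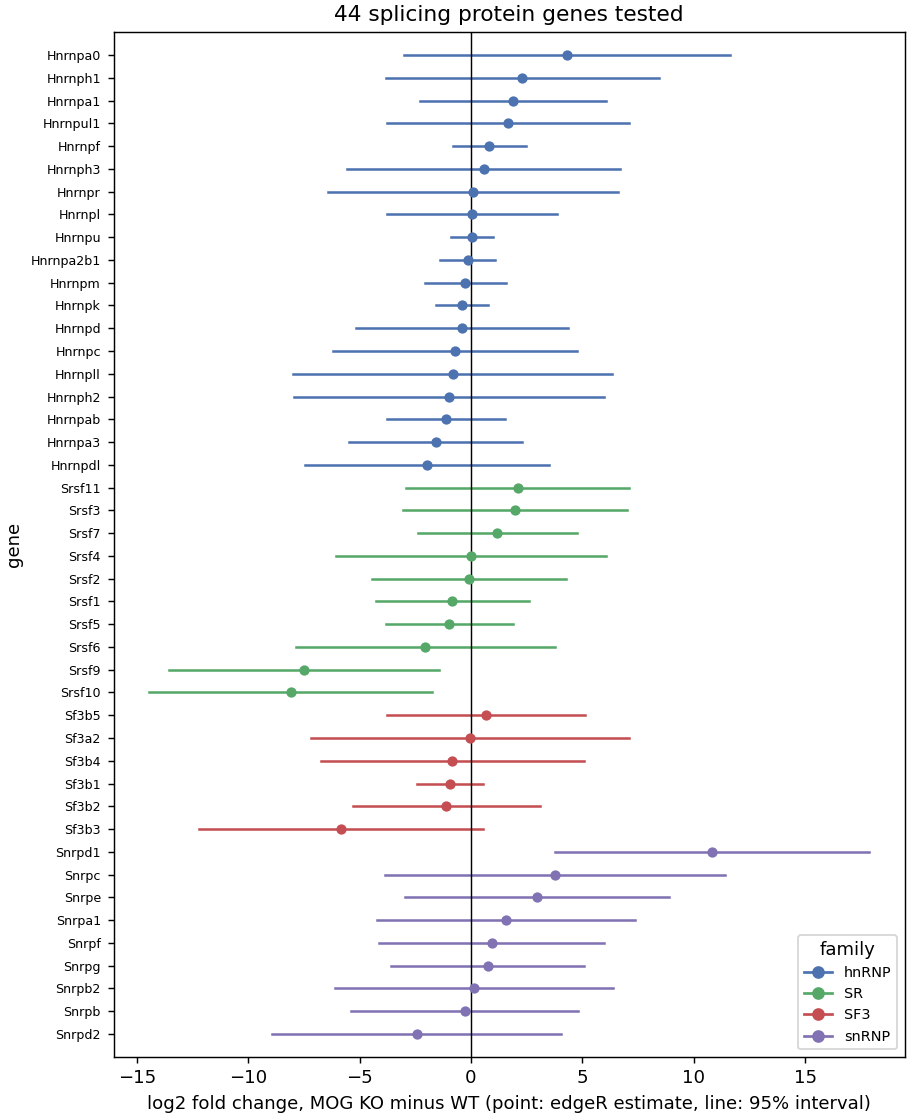
Log2 fold change of each of the 44 tested splicing genes (x axis, MOG KO minus WT, edgeR estimate as a point and 95% interval as a line), coloured by family. The intervals of Snrpd1, Srsf9 and Srsf10 leave out 0 before adjustment, and Hnrnpu, Hnrnpk, Hnrnpa2b1 and Sf3b1 have the narrowest intervals. Snrpd1, Srsf9 and Srsf10 passed the filter on low counts only through the genotype in which they were higher.

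The hnRNP genes held the most evenly read members, and the estimates of 5 of them had SEs under 1 on the log2 scale. Of these 5, Hnrnpf, Hnrnpm and Hnrnpk are among the genes with over 10% of shared stretches. 7 of 20 hnRNP genes were read in every library. Hnrnpu, which encodes a scaffold protein of nuclear RNA and chromatin, had 629.5, 787 and 825 RPM in the WT libraries against 888, 960.5 and 571 RPM in MOG KO. Its log2 fold change was 0.04 ± 0.41 (SE, n = 3 per group), the 95% interval ran from -0.91 to 0.99, and the genotypes overlapped. Hnrnpa2b1, which encodes a protein of RNA sorting and splicing, had 521, 548 and 680.3 RPM and then 562, 433 and 662 RPM (-0.15 ± 0.54, 95% interval -1.4 to 1.1). It was the most even of the members read in every library, with a highest library 1.57 times the lowest. The Hnrnpm values, for another regulator of splicing, were 362, 574 and 384 RPM and then 361, 383 and 401 RPM (-0.26 ± 0.79). Hnrnpk, whose protein binds C-rich RNA and DNA, had 664, 584 and 923 RPM and then 618, 761 and 374 RPM (-0.39 ± 0.51, 95% interval -1.58 to 0.79). The adjusted p of these 4 genes in edgeR was 1.00. In each of the 4 the genotypes overlapped, and for Hnrnpu the interval leaves out a change of more than 1.99-fold up or below 0.53 of the WT level.

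The remaining evenly read hnRNP genes varied more. Hnrnpab, which encodes an RNA-binding protein of transport and splicing, had 351, 157 and 800.5 RPM for WT, then 262, 171 and 228 RPM for MOG KO, with WT replicate 3 above the rest (-1.11 ± 1.15, and -0.188 without WT replicate 3). Hnrnpl, which like Hnrnpll acts on CD45 exons, had 214, 92.3 and 167 RPM and then 174, 280.4 and 58.5 RPM (0.04 ± 1.65). Hnrnpf, whose protein binds G-rich RNA, had the highest level of all 52 genes per length. Per kb of exons in transcripts matched to RefSeq it had 732 ± 425 RPM, and per kb of all annotated exons 685 ± 398 RPM (SD, 6 libraries). Its count is uncertain for the copies and the exon overlap described above. Hnrnpf had 1941, 2362 and 255 RPM in the WT libraries against 1384, 3790.4 and 2787 RPM in MOG KO. Its log2 fold change was 0.82 ± 0.7 (95% interval -0.82 to 2.46). The 255 RPM of WT replicate 3 stood apart, as every other value was at least 1384 RPM.

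The order after Hnrnpf depended on which length was used. With transcripts matched to RefSeq the next levels were Hnrnpa2b1 (298 ± 48.3 RPM per kb), Hnrnpk (209 ± 58.6) and Hnrnpa1 (182 ± 148). With all annotated exons they were Hnrnpa1 (124 ± 100.4 RPM per kb), Hnrnpab (118 ± 86.9) and Hnrnpk (101 ± 28.4), and Hnrnpa2b1 had 86.2 ± 14. The gene models behind the counts are unknown here.

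Other hnRNP genes were read in some libraries and close to 0 in others. Hnrnpa1, whose protein opposes SR proteins at many exons, had 3.68, 499 and 4.25 RPM for WT, then 464, 756 and 618 RPM for MOG KO. WT replicate 2 lay within the MOG KO range, and the other WT libraries were more than 100-fold lower, so the log2 fold change of 1.89 ± 1.79 rested on WT replicate 2 and was 7.18 without it (unadjusted p = 0.00406, adjusted p = 0.784 in edgeR). Hnrnpll, the regulator of CD45 exons, had 0.368, 155 and 446 RPM in the WT libraries against 0, 369 and 0.29 RPM in MOG KO. It was read in 2 WT and 1 MOG KO libraries (-0.82 ± 3.07, 95% interval -7.97 to 6.33), and its value was -10.31 without MOG KO replicate 2 and 0.73 without WT replicate 3. Hnrnpa0 was read only in MOG KO replicate 3 (67.5 RPM), against 0 to 3.21 RPM in the other 5 libraries (4.31 ± 3.13, from 0.44 without that library to 9.50 without WT replicate 3).

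The 10 hnRNP genes not given so far were Hnrnpa3, Hnrnpc, Hnrnpd, Hnrnpdl, Hnrnph1, Hnrnph2, Hnrnph3, Hnrnpr, Hnrnpul1 and Hnrnpul2. They were read in 2 to 5 libraries. Hnrnpa3 and Hnrnpd were missing from MOG KO replicate 3 only. Hnrnpa3 ran from 9.85 RPM there to 1534 RPM in WT replicate 3, while Hnrnpr, read in WT replicates 1 and 2 and MOG KO replicate 1, ran from 0.229 to 599 RPM. In the fit 9 of 19 hnRNP genes tested were positive and 10 negative, with a median of -0.15. Hnrnpul2 did not pass the filter.

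**Figure D5:**
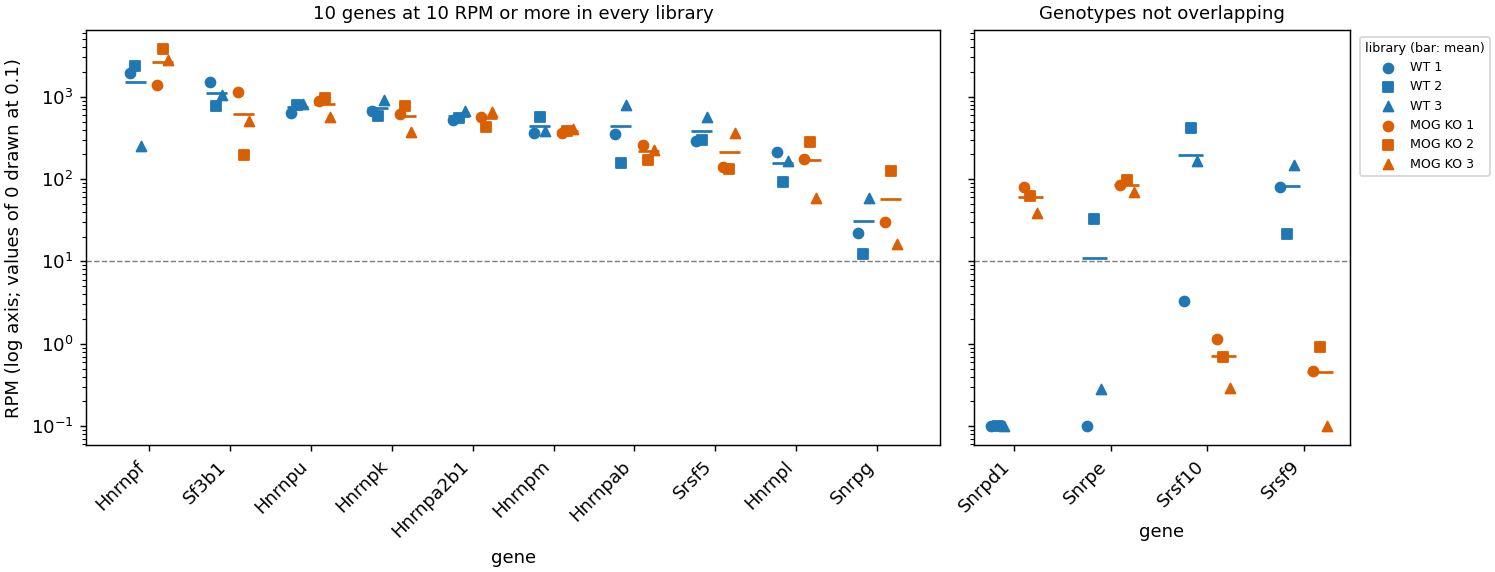
RPM per library on a log axis, WT in blue and MOG KO in orange, one symbol per replicate and a bar for the group mean, with the dashed line at 10 RPM. Left, the 10 genes read in every library, whose genotypes overlap throughout. Right, the 4 genes whose genotypes do not overlap: Snrpd1 is at 0 in all WT libraries and Srsf9 under 1 RPM in all MOG KO libraries.

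Of the 49 members with a mean of 10 RPM or more, 4 (8.16%) had genotypes that did not overlap, against a background of 9.06%, and all 4 were low in some libraries. Of these, 2 (4.08%) lay wholly higher in MOG KO, against 4.06% of 7112 genes with such a mean, and 2 (4.08%) wholly lower, against 4.99%. These shares are near the background. 2 members, Snrpd1 and Srsf9, were read in all 3 libraries of 1 genotype and in none of the other, 4.08% of the 49 against a background of 1.61% (127 of 7908 genes). Both passed the filter on low counts only through the genotype in which they were read, and so did Srsf10, through WT. A gene low in all 3 libraries of 1 genotype was tested only if all 3 libraries of the other reached the filter's cut. Tested genes of this kind thus differ between the genotypes by selection. The p-values of these 3 genes, and the counts of called members that include them, are therefore given as descriptions.

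Among the SR genes, Srsf9 and Srsf10 had the lower values in MOG KO. Srsf9, which encodes a short SR protein, had 79.1, 21.2 and 148 RPM for WT, then 0.462, 0.917 and 0 RPM for MOG KO. Every WT library was above every MOG KO library, with 831 counts in WT and 6 in MOG KO. Its log2 fold change was -7.5 ± 2.61 (SE, n = 3 per group), with an adjusted p of 0.711 in edgeR and 0.00616 in DESeq2 on the same genes. Srsf10, which encodes an SR protein known as a splicing repressor in dividing cells and after heat shock, had 3.31, 415 and 167 RPM in the WT libraries against 1.16, 0.688 and 0.29 RPM in MOG KO. WT replicate 1 was close to the MOG KO libraries, and the counts were 2452 in WT and 9 in MOG KO. Its log2 fold change was -8.09 ± 2.73, with an adjusted p of 0.683 in edgeR and 0.000721 in DESeq2 on the same genes. A filter of 50 counts in 3 libraries leaves it out of the test. Counts were also simulated with the same spread for every gene, the median of these libraries. In them DESeq2 made 193 false calls and recovered 5% of 4-fold and 36% of 64-fold changes. In the same counts limma-voom made 4 false calls and recovered 0% and 5%, and edgeR made 0 and recovered 0% and 0%. The simulation left out differences in spread between genes, and 7053 genes passed its filter against 4087 here. Its rates therefore cannot say whether the calls of Srsf9 and Srsf10 are false.

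Srsf5, which encodes an exon-binding SR protein, was the only SR gene read in every library. It had 289.6, 299 and 573 RPM for WT, then 139, 132 and 359.9 RPM for MOG KO, where MOG KO replicate 3 lay within the WT range (-0.96 ± 1.23, from -1.62 without that library to -0.464 without WT replicate 3). Srsf1, which encodes the SR protein first purified as a splicing factor, had 690.2, 281 and 229 RPM and then 9.94, 277 and 389.5 RPM, so that MOG KO replicate 1 stood apart (-0.84 ± 1.48, -0.26 without that library and -0.24 without WT replicate 1). Srsf2, whose protein binds exons and also acts in transcription, had 3.68, 154 and 375 RPM and then 208, 234 and 107 RPM, with WT replicate 1 apart. Its log2 fold change of -0.1 ± 1.87 was 1.26 without WT replicate 3 and 0.17 without MOG KO replicate 3. Srsf11, which encodes a larger SR-like protein, had 4.05, 257 and 1.7 RPM in the WT libraries against 108, 451 and 536 RPM in MOG KO, overlapping through WT replicate 2 (2.11 ± 2.15, and 6.93 without WT replicate 2). Srsf3, Srsf4, Srsf6 and Srsf7 were each missing from 1 or 2 libraries, with highest values of 829, 98.2, 467 and 615 RPM. Srsf7 was missing from WT replicate 3 alone, at 3.97 RPM. Of 10 SR genes tested, 3 were positive and 7 negative, with a median of -0.47.

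Of the SF3 genes, 3 or 4 were read in each MOG KO library and 4 to 7 in each WT library, and no tested SF3 gene passed the test in edgeR. WT libraries read 7, 7 and 4 of the 9 genes and MOG KO libraries 4, 3 and 3, so WT replicate 3 and MOG KO replicate 1 were equal. Sf3b1, the largest SF3B subunit, which contacts the intron at the branch point, held the most counts of the family in every library, 40.8% to 68.8% per library. It had 1509.6, 773 and 1062 RPM for WT, then 1145, 197 and 511 RPM for MOG KO. MOG KO replicate 1 lay within the WT range and the other MOG KO libraries below it, with a log2 fold change of -0.94 ± 0.63 (95% interval -2.41 to 0.53, adjusted p = 1.00 in edgeR). Leaving out 1 library at a time gave -1.68 without MOG KO replicate 1 and -0.53 without MOG KO replicate 2. Sf3b2, whose product binds upstream of the branch point, had 338, 415 and 174 RPM and then 193, 2.06 and 249.5 RPM (-1.1 ± 1.81, and from -1.73 without MOG KO replicate 3 to -0.502 without MOG KO replicate 2). Sf3b3, for another large SF3B subunit, was read only in WT replicate 2, at 385 RPM, against 0.924 to 6.25 RPM in the other 5 libraries (-5.83 ± 2.74, and -1.13 without WT replicate 2).

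The other SF3 genes were Sf3a1, Sf3a2, Sf3a3, Sf3b4, Sf3b5 and Sf3b6. Sf3a3, a subunit of the SF3A trimer, had 267, 178 and 0.85 RPM in the WT libraries against 0.693, 0.459 and 1.74 RPM in MOG KO, and Sf3b6, the subunit that meets the branch point adenosine, had 66.6, 0 and 10.5 RPM and then 0.231, 0.229 and 0.29 RPM. Neither passed the filter for edgeR. DESeq2 on every gene with a count called both (adjusted p = 0.0132 and 0.0495), and they are named here after their values were seen. Sf3a2 was read in WT replicates 1 and 2 and MOG KO replicate 2, at up to 70.9 RPM. Sf3b5 was read in every library but WT replicate 3, with a highest value of 124 RPM, and Sf3b4 in all WT libraries and MOG KO replicate 1. Of the SF3A trimer, 2, 2 and 0 genes were read in WT and 0, 1 and 0 in MOG KO, and of the 6 SF3B genes 5, 5 and 4 in WT and 4, 2 and 3 in MOG KO. In the fit 1 of 6 tested SF3 genes was positive and 5 negative, with a median of -0.89. With DESeq2 size factors 2 were positive and 4 negative, and the splits were 8 to 11 for hnRNP, 4 to 6 for SR and 7 to 2 for snRNP genes. Without MOG KO replicate 1, 2 or 3 the SF3 median was -3.54, -3.03 or -1.28, each over 8 tested genes. Without WT replicate 1, 2 or 3 it was -0.64, -1.12 or -0.87, over 6, 7 and 7 tested genes. The filter lets in other genes when a library is left out. These medians thus cover different genes and are not a measure of how far the same genes moved.

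The snRNP genes included the member of smallest p. Snrpd1, which encodes the Sm ring protein SmD1, had 0 counts in all 3 WT libraries and 80.9, 61.9 and 39.1 RPM in MOG KO. Against a floor of 3 counts over the WT group it was at least 222-fold higher in MOG KO, a limit set by counting alone, with no allowance for how libraries vary. The fitted log2 fold change of 10.82 ± 2.87 depends on the prior count and is no bound, and its unadjusted p was 0.00944. The adjusted p was 0.602 in edgeR and 0.00779 in DESeq2 on the same genes. Snrpe, another Sm protein gene, had 0, 32.4 and 0.283 RPM for WT, then 83.7, 98.6 and 69 RPM for MOG KO. The genotypes did not overlap, WT replicate 2 being the nearest (2.96 ± 2.55, adjusted p = 1.00 in edgeR, and 8.75 without WT replicate 2).

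The Sm ring needs every one of its proteins, and no library read the genes for all of them. Of the 7 Sm genes (Snrpb, Snrpd1, Snrpd2, Snrpd3, Snrpe, Snrpf and Snrpg), 5, 5 and 2 were read in WT and 5, 5 and 6 in MOG KO. Snrpg was the only snRNP gene read in every library, at 22.4, 12.3 and 59 RPM in the WT libraries against 30, 124 and 16.2 RPM in MOG KO (0.75 ± 1.87). Snrpb, which encodes SmB, had 23.2, 244 and 353 RPM and then 0.231, 226 and 309.5 RPM, with MOG KO replicate 1 close to 0 (-0.28 ± 2.19). In WT replicate 3 Snrpb held 85.3% of the snRNP counts, and Snrpb and Snrpg were the only snRNP genes read there. Snrpd2, Snrpd3 and Snrpf were read in 3, 2 and 5 libraries, with highest values of 81.6, 137 and 48.1 RPM.

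The genes for proteins particular to the U1 and U2 snRNPs were also missing from some libraries. Snrpc, which encodes the U1 protein that steadies contact with the start of the intron, had 0, 16.3 and 0 RPM for WT, then 142, 83.9 and 0 RPM for MOG KO. The genotypes overlapped through MOG KO replicate 3 (3.78 ± 3.28, and 11.10 without WT replicate 2). Snrpa, the gene of another U1 protein, was read only in WT replicate 2 (96.6 RPM), and it did not pass the filter. Snrpa1 and Snrpb2, for the U2 proteins A' and B'', were each read in 4 libraries and both missing from WT replicate 3. Of 9 snRNP genes tested 7 were positive and 2 negative, with a median of 0.93. When 1 library was left out, 6 to 8 were positive of 9 or 10 tested.

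Other genes of the splicing machinery gave no call in edgeR either. Of 73 other core spliceosome genes, 47 were tested, 0 passed in either direction, and 20 were positive and 27 negative (median -0.15). The 2 of smallest p were Prpf4b, a kinase of the tri-snRNP (1.47, 378 and 239.8 RPM for WT, then 17.6, 0.688 and 2.9 RPM for MOG KO, -4.97 ± 2.62), and U2surp, a U2-associated protein (2.21, 51.2 and 1.98 RPM, then 0.462, 620.2 and 331 RPM, 4.15 ± 2.69). 68 of these 73 genes were read in at least 1 library and 1 in all 6 libraries. Of 52 other splicing regulators, 41 were tested, 0 passed, and 18 were positive and 23 negative (median -0.36). 49 of these 52 genes were read in at least 1 library and 12 in all 6 libraries. Matr3, which encodes the nuclear matrix protein matrin 3, had 289, 304 and 156 RPM in the WT libraries against 1.39, 4.13 and 2.03 RPM in MOG KO. The log2 fold change was -6.64 ± 2.16. Its adjusted p was 0.644 in edgeR and 0.000546 in DESeq2 on the same genes. Ddx5, an RNA helicase that unwinds splice site pairings, had 491, 434 and 340.1 RPM and then 806, 965 and 807 RPM. Every MOG KO library was above every WT library (0.98 ± 0.46, unadjusted p = 0.0679, adjusted p = 1.00 in edgeR).

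The members that the results turn on are protein-coding genes, located as follows on GRCm38, the assembly that mm10 names. Srsf9 (Entrez 108014) lies on chromosome 5 from 115327177 to 115333080, Srsf10 (14105) on chromosome 4 from 135855747 to 135869908 and Srsf5 (20384) on chromosome 12 from 80945504 to 80950507. Sf3b1 (81898) lies on chromosome 1 from 54985169 to 55027481, and Snrpe (20643) on the same chromosome from 133603871 to 133610291. Hnrnpf (98758) lies on chromosome 6 from 117900324 to 117925622, Hnrnpa1 (15382) on chromosome 15 from 103240432 to 103246692, Hnrnpu (51810) on chromosome 1 from 178321108 to 178337797 and Hnrnpll (72692) on chromosome 17 from 80029487 to 80062334. Snrpd1 (20641) lies on chromosome 18.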

How the data were processed

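Gene counts of 6 Treg libraries were analysed. Per the labels' protocols, RNA of 500 cells was copied with the SMARTer V3 kit, amplified by 15 PCR cycles, tagged with NexteraXT and read as single 100-base reads. The deposited counts are integer counts per gene, not normalized, with 1 column per library and no pooling. The deposited RPM values are the same counts scaled by each library's total, and rescaling the counts matched them within 1e-06. STAR 2.3.1, R 3.2.2 and build mm10 are named in the submitters' processing notes; the counting tool is not given in the sources used here, nor the strand setting or gene models. 1 of 23725 rows has no symbol (at most 0.00548% of a library's counts) and was left out of library sizes and tests.

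Counts were fitted with edgeR 4.0.16 in R 4.3.3: filterByExpr, TMM scaling, robust quasi-likelihood test, genotype alone, Benjamini-Hochberg adjustment over all tested genes, threshold 0.05. SEs are the log2 fold change divided by the root of F, and 95% intervals use them. Alternatives were DESeq2 1.42.0, limma-voom (limma 3.58.1), other scaling, other filters, a replicate block and leaving out each library. The members and lists were chosen with earlier results of these data known. Values in every library are given for members read in all libraries, Hnrnpll, Srsf1, Srsf2, Sf3b1 and Snrpb, members without overlap at a mean of 10 RPM, and the 3 of smallest p per family; of each other list, for members past the threshold or the 2 of smallest p. The fit was tested on simulated counts of MOG KO against WT with 200 changed genes. At a low spread (7854 genes) edgeR recovered 100% of 4-fold and 100% of 64-fold changes, with 9 false calls. At the median spread of these libraries (7053 genes) it recovered 0% and 0%, with 0 false calls. Shared 100-base stretches were sought on either strand in all GENCODE M21 transcripts.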

Additional observations from a re-analysis of the deposited data

How the results depend on the processing

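The count of members past the threshold stayed at 0 in edgeR with DESeq2 size factors, no filter, a filter of 50 counts in 3 libraries, limma-voom, the replicate block and without each library in turn (range 0 to 0, as for all genes and both other lists). DESeq2 on every gene with a count called 5 members, 744 genes, 1 other core spliceosome gene (U2af2) and 4 other regulators (Clk4, Matr3, Qk and Rbmx), and DESeq2 on the filtered genes called 3 members, 210 genes and 1 regulator (Matr3). The cause was not tested. Members read in all 6 libraries numbered 20 at 1 RPM, 9 at 50 RPM and 15 at 10 counts. The labels do not say that replicate numbers pair the libraries. Correlations of same-numbered deviations were -0.0225, -0.00233 and -0.0176. Deviations from means of 3 libraries cannot show whether same-numbered libraries were handled together. With the replicate block 0 members and 0 genes passed, and the signs of Hnrnpl (-0.16) and Srsf2 (1.06) turned. Hnrnpl also turned with DESeq2 size factors (-0.0185) and in DESeq2 (-0.0973 on all genes and -0.0184 on filtered genes), Hnrnpu in DESeq2 on all genes (-0.0877), and in limma-voom Hnrnpf (-0.32) and Srsf2 (1.32). Without 1 library, 7 of 24 named members changed sign: Hnrnpa2b1 (-0.31 to 0.0719), Hnrnpl (-0.55 to 0.46), Hnrnpll (-10.31 to 0.73), Hnrnpu (-0.12 to 0.24), Snrpb (-0.93 to 0.46), Snrpg (-0.603 to 1.74) and Srsf2 (-0.63 to 1.26). The members' median ranged from -0.4 to 0.2. Differences of family shares moved by less than 1 SD under every alternative run, though several turned in sign. Without the 10 genes of highest mean, which include Hnrnpf, that of the hnRNP genes went from 0.0611 to -0.0577 percentage points and that of all families from -0.00974 to -0.133. Without 1 library the ranges were -0.0912 to 0.0667 for all families, -0.028 to 0.117 for hnRNP and -0.0147 to 0.0257 for SR genes. With the length of all annotated exons, chosen after seeing the data, Hnrnpf led the hnRNP genes per kb in 5 libraries under either length, and Srsf5 led the SR genes in 1 library in place of 3. A count of 0 limits a level only to 0.671 to 1.1 RPM at this depth.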
